A study of Drosophila melanogaster with 8 samples.

Results

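The mitochondrial ribosomal protein genes of Drosophila melanogaster were the 70 single-gene entries, of 15904 entries in all, whose gene symbol begins with mRpL or mRpS followed by a number. Membership was set by the symbols alone and by no measured value, although the set was chosen with earlier results of these data known. The large subunit of the mitochondrial ribosome was represented by 45 of these genes (mRpL) and the small subunit by 25 (mRpS).

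The mitochondrial ribosome translates the few proteins that mitochondrial DNA encodes, which are core subunits of the respiratory chain and of ATP synthase. Its RNAs come from the mitochondrial genome, but its proteins are encoded in the nucleus, made by cytoplasmic ribosomes and imported. In flies these genes are known for growth and energy phenotypes: mutants of tko, the gene for the small subunit protein S12, are slow to develop and sensitive to mechanical shock.

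RNA was measured in whole wandering larvae of the third and last instar, with 5 larvae pooled in each library and 2 libraries for each of 4 genotypes. The hsromega66 larvae carried a near-null allele of the non-coding gene hsromega, Hsp90GFP larvae over-expressed the chaperone gene Hsp83, and the third mutant group was labelled as the Hsp90GFP hsromega66 recombinant. All 3 mutant genotypes were given in a w1118; Sp/CyO' background, in which Sp is a dominant marker and CyO a balancer, whereas WT was Oregon R+, so every comparison with WT is also one of backgrounds. The labels give neither the promoter behind Hsp90GFP nor the sex of the larvae, and nothing says that the 2 libraries of a genotype came from separate cultures, so the spread behind the p-values may be technical.

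The deposited tables hold 1 value per genotype and gene, in FPKM (fragments per kilobase of transcript, corrected for library size), so no value per library can be shown and the read depth is not known. The FPKM of all entries added up to between 893055 and 1202780 by genotype, highest in the libraries labelled as the recombinant. Hsromega stood at 0.767 FPKM in hsromega66, 273 FPKM in Hsp90GFP and 77.9 FPKM in the labelled recombinant, against 236 FPKM in WT. The level in the labelled recombinant was 33.0% of that in WT, which goes against an hsromega66 label, and those libraries are called labelled recombinant throughout. The authors' test did not call this difference from WT (q = 0.629) but called the one from hsromega66, a ratio of 102 (q = 0.00144). The labelled recombinant libraries differed from WT at l(2)gl, a tumour suppressor gene of cell polarity at the tip of arm 2L. It stood at 0.0516 FPKM there against 59.6 FPKM in WT (q = 0.00144 in the authors' deposited table). Hsp83 stood at 427 FPKM in hsromega66, 1616 FPKM in Hsp90GFP and 968 FPKM in the labelled recombinant, against 371 FPKM in WT. It was not called against WT in the authors' test, with q = 0.0538 in Hsp90GFP and q = 0.243 in the labelled recombinant.

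All 70 genes were expressed in every genotype, at moderate levels. The lowest, median and highest member had 6.93, 14.9 and 107.8 FPKM in hsromega66, 5.59, 12.9 and 88.7 FPKM in Hsp90GFP, and 13.6, 28.4 and 145 FPKM in the labelled recombinant, against 5.65, 15.5 and 95.3 FPKM in WT. The labelled recombinant therefore had the highest median, and the other 3 genotypes lay close together. In 68 of the 70 genes the labelled recombinant had the highest level of the 4 genotypes, and the other two, mRpL33 and mRpS28, were highest in WT. Hsp90GFP had the lowest level for 44 genes, hsromega66 for 19 and WT for 7. In whole larvae, fewer cells of a type and less RNA per cell cannot be told apart.

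**Figure D1:**
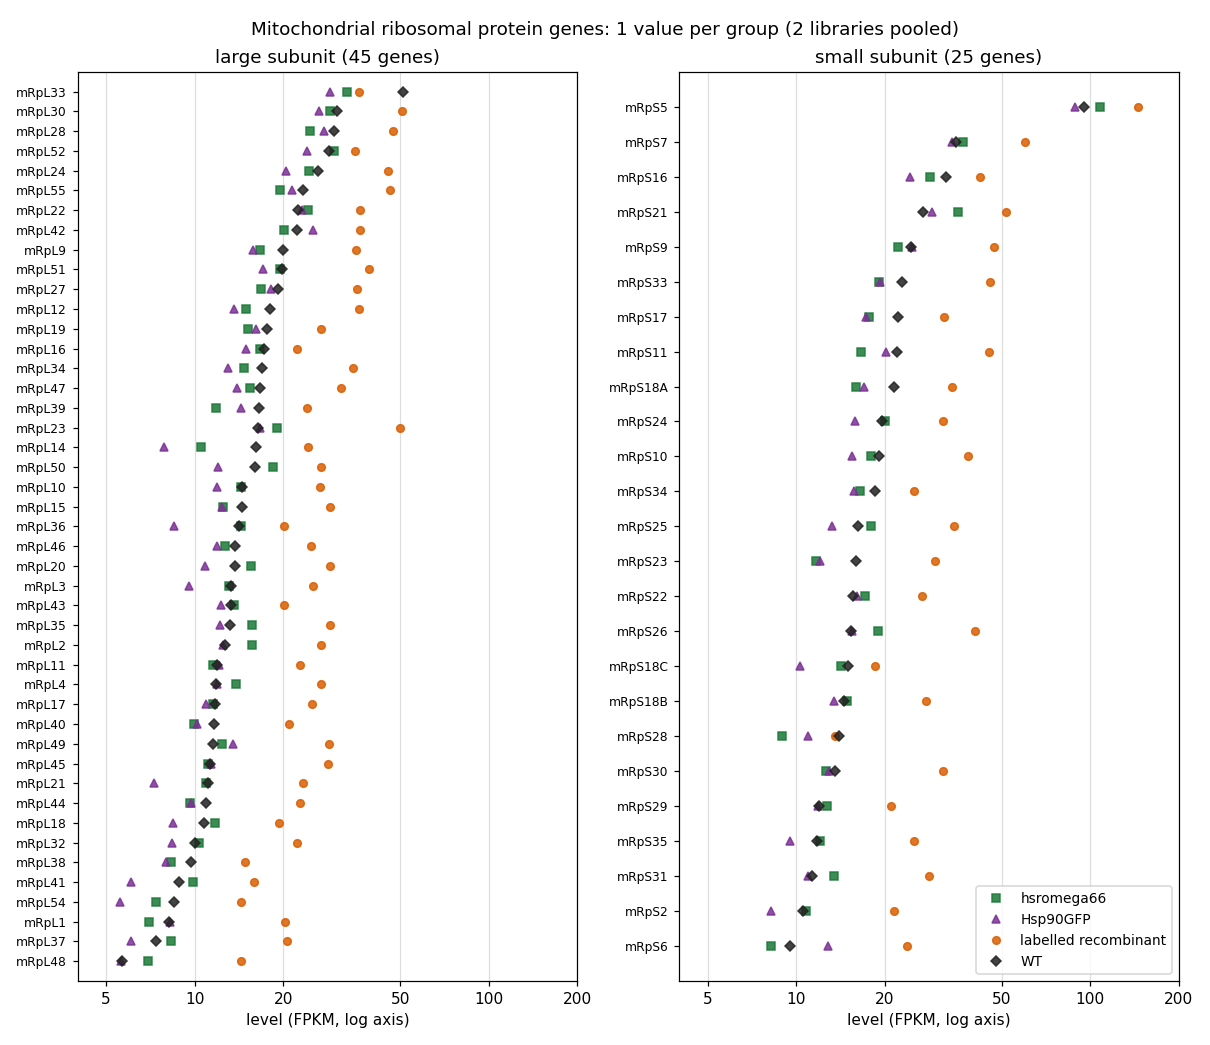
Level (FPKM, log axis) of each mitochondrial ribosomal protein gene in the 4 genotypes, 1 point per gene and genotype, with the 45 large subunit genes on the left and the 25 small subunit genes on the right, ordered by WT level. The labelled recombinant points lie farthest right for 68 genes; the median of the 70 genes is 28.4 FPKM in the labelled recombinant, against 12.9 to 15.5 FPKM in the other 3 genotypes.

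The levels summed over the 70 genes came to 1211 FPKM in hsromega66, 1095 FPKM in Hsp90GFP and 2231 FPKM in the labelled recombinant, against 1264 FPKM in WT. As a share of the FPKM of all entries, this was 0.116% in hsromega66, 0.123% in Hsp90GFP and 0.185% in the labelled recombinant, against 0.135% in WT. Set against the summed level of 82 cytoplasmic ribosomal protein genes, it was 1.02% in hsromega66, 0.987% in Hsp90GFP and 1.34% in the labelled recombinant, against 1.10% in WT. On all 3 measures the labelled recombinant was highest.

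The order of the genes by level differed little between genotypes, with Spearman correlations from 0.821 to 0.911 over the 70 genes for the 6 pairs of genotypes; the genes within a genotype share its libraries. The 5 genes highest in WT were mRpS5, mRpL33, mRpS7, mRpS16 and mRpL30. The protein S5 lies in the small subunit where the mRNA enters, and mRpS5 had 107.8 FPKM in hsromega66, 88.7 FPKM in Hsp90GFP and 145 FPKM in the labelled recombinant, against 95.3 FPKM in WT. Protein S7 lies along the path of the tRNAs, and mRpS7 had 36.9 FPKM in hsromega66, 33.9 FPKM in Hsp90GFP and 59.9 FPKM in the labelled recombinant, against 35.0 FPKM in WT. Each of these was highest in the labelled recombinant. mRpS16 had 28.6 FPKM in hsromega66, 24.4 FPKM in Hsp90GFP and 42.2 FPKM in the labelled recombinant, against 32.3 FPKM in WT. mRpL30 had 28.8 FPKM in hsromega66, 26.5 FPKM in Hsp90GFP and 50.7 FPKM in the labelled recombinant, against 30.4 FPKM in WT. Both were also highest in the labelled recombinant. The 5 genes lowest in WT were mRpL48, mRpL37, mRpL1, mRpL54 and mRpL41, at 5.65 to 8.84 FPKM in WT.

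In the authors' test, in which a gene was called at a deposited q under 0.05, none of the 70 genes was called in any of the 6 comparisons between genotypes. Of all genes tested, 1.24% were called in hsromega66 against WT, 1.09% in Hsp90GFP against WT and 8.66% in the labelled recombinant against WT. The shares were 7.3% in the labelled recombinant against hsromega66, 6.66% in the labelled recombinant against Hsp90GFP and 0.997% in Hsp90GFP against hsromega66. At an unadjusted p under 0.05 there were 0 members in hsromega66 against WT (3.49% of all tested genes), 0 in Hsp90GFP against WT (3.06%) and 5 in the labelled recombinant against WT (18%). There were 7 in the labelled recombinant against hsromega66 (16.3%), 12 in the labelled recombinant against Hsp90GFP (15.4%) and 0 in Hsp90GFP against hsromega66 (3.1%). Every member at such a p was higher in the labelled recombinant. The shares of all genes count both directions. Set against these, the share of members in the labelled recombinant against WT was below that of all genes, and the share against Hsp90GFP near it.

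The precision of these tables limits such calls. The standard error of a log2 ratio, computed from its size and the deposited test statistic, had a median of 0.95 over the members in the labelled recombinant against WT and of 0.98 in hsromega66 against WT. The smallest ratio called higher among all genes was 2.93 in the labelled recombinant against WT, and only mRpL23 reached it. The 95% normal interval of the ratio held 1 for all 70 genes in every comparison but the labelled recombinant against Hsp90GFP. There it held 1 for 69. For members at an unadjusted p under 0.05, these intervals were wider than that p implies.

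In hsromega66 the genes lay around their WT level. Of the 70 genes, 28 stood above WT and 42 below, beside 45.4% of all tested genes above, and the median FPKM ratio was 0.971, with a range from 0.644 to 1.32. The count depended on scaling: with the FPKM of each genotype scaled to the same total, 13 members stood above WT, and centred on the median of all tested genes, 34 did. On the log2(FPKM + 1) scale the median difference was -0.04, beside -0.03 over all 12523 tested genes. No member reached a ratio of 1.5 higher, beside 12% of all tested genes and 7.9% of those with a WT level in the range of the members, and 3 reached it lower, beside 10.9%.

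The 4 genes farthest below WT in hsromega66 were mRpL33, mRpS28, mRpL14 and mRpL39. Protein L33 is a small protein of the large subunit; mRpL33 had 33.0 FPKM in hsromega66 against 51.2 FPKM in WT, a ratio of 0.644 (95% interval 0.194 to 2.14). mRpS28 had 8.97 FPKM in hsromega66 against 13.9 FPKM in WT. mRpL14, whose protein lies at the interface between the subunits, had 10.5 FPKM in hsromega66 against 16.1 FPKM in WT. The gap was smaller for mRpL39, with 11.8 FPKM in hsromega66 against 16.599 FPKM in WT. The lowest q of a member in the authors' deposited table was 0.711, for mRpL33, so none of these differences was beyond the spread that the test allows for. The 4 genes farthest above WT were mRpS21, mRpS26, mRpL2 and mRpL48. mRpS21 had 35.6 FPKM in hsromega66 against 27.0 FPKM in WT, with a ratio of 1.32 (95% interval 0.396 to 4.39). mRpL2, for a protein next to the peptidyl transferase centre, had 15.7 FPKM in hsromega66 against 12.7 FPKM in WT. mRpL48, the lowest member in WT, had 6.93 FPKM in hsromega66 against 5.65 FPKM in WT.

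In Hsp90GFP 57 of the 70 genes stood below WT and 13 above, with a median ratio of 0.863. The range ran from 0.488 to 1.34. The median log2(FPKM + 1) difference was -0.20, beside -0.04 over all 12621 tested genes, and 44.8% of all tested genes stood above WT. A ratio of 1.5 lower was reached by 5 members, beside 11.7% of all tested genes, and 1.5 higher by 0, beside 11.6% of all and 6.5% of those in the members' range of WT level.

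mRpL14 was farthest below WT in Hsp90GFP, at 7.85 FPKM against 16.1 FPKM in WT, a ratio of 0.488 (95% interval 0.141 to 1.69). It had the lowest q of any member there, 0.454 in the authors' deposited table. mRpL33 followed with 28.9 FPKM in Hsp90GFP against 51.2 FPKM in WT, then mRpL36 with 8.53 FPKM against 14.1 FPKM, and mRpL21 with 7.28 FPKM against 11.1 FPKM. The comparisons of the 3 mutant genotypes with WT share the WT libraries. The member farthest above WT was mRpS6, whose protein binds S18 in the small subunit, with 12.9 FPKM in Hsp90GFP against 9.56 FPKM in WT. mRpL49, mRpL42 and mRpS21 came next, with ratios of 1.17, 1.13 and 1.07.

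In the labelled recombinant 68 of the 70 genes stood above WT, beside 46.1% of all 12656 tested genes. The median ratio was 1.88, with a range from 0.710 to 3.04. A ratio of at least 1.5 higher was reached by 60 members, beside 25.7% of all tested genes and 22.4% of the 6522 with a WT level in the range of the members. It was reached by 29 members when the FPKM of each genotype were scaled to the same total, beside 18.2% of all tested genes, a rescaling added after the data were seen. No member had a ratio of 1.5 lower, beside 32.2% of all tested genes. The median log2(FPKM + 1) difference was 0.87 over the members and -0.07 over all tested genes.

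The differences were of similar size across the set. The standard deviation of the members' log2 ratios was 0.35 in the labelled recombinant against WT, beside 1.63 for tested genes in the same range of WT level. It was 0.23 beside 0.60 in hsromega66 against WT, and 0.24 beside 0.65 in Hsp90GFP against WT. The range from the 25th to the 75th percentile, which outlying genes affect less, differed less in the single genotypes. It was 0.38 beside 1.05 in the labelled recombinant, 0.31 beside 0.39 in hsromega66 and 0.29 beside 0.41 in Hsp90GFP, each against WT. The members just short of a ratio of 1.5 were mRpS34 at 1.36, mRpL36 at 1.42, mRpS17 at 1.43 and mRpL39 at 1.45. Just past it lay mRpL14 at 1.51, mRpL43 at 1.51, mRpL38 at 1.52 and mRpS5 at 1.52.

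**Figure D2:**
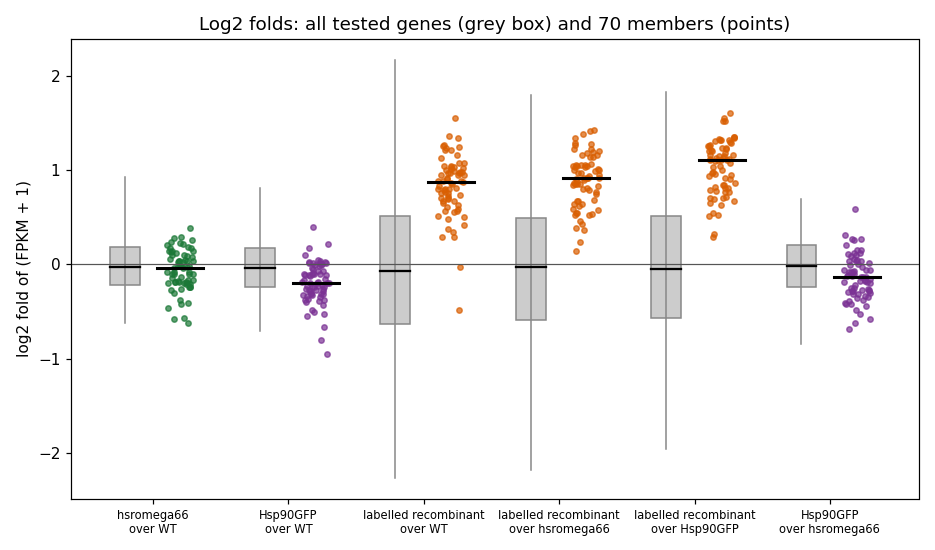
Log2(FPKM + 1) difference in each of the 6 comparisons, for the 70 genes (points, with a black line at their median) and for all tested genes (grey box from the 25th to the 75th percentile with the median, line from the 5th to the 95th). The members' median is 0.87, 0.92 and 1.11 in the 3 comparisons of the labelled recombinant, with WT, hsromega66 and Hsp90GFP, and from -0.20 to -0.04 in the other 3.

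The 4 genes farthest above WT in the labelled recombinant, by log2(FPKM + 1) difference, were mRpL23, mRpL37, mRpS26 and mRpL45. By ratio of FPKM, mRpL48 at 2.54 lay just above mRpL45 at 2.52. Protein L23 stands at the mouth of the tunnel through which the new protein leaves the ribosome. mRpL23 (arm 3L, 2372844 to 2373704, minus strand) had 19.1 FPKM in hsromega66, 16.7 FPKM in Hsp90GFP and 49.8 FPKM in the labelled recombinant, against 16.4 FPKM in WT. The labelled recombinant alone stood apart. The ratio to WT was 3.04, but its 95% interval ran from 0.336 to 27.6 and q was 0.801 in the authors' deposited table.

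mRpL37 (arm 3R, 10782563 to 10784092, minus strand) had 8.29 FPKM in hsromega66, 6.096 FPKM in Hsp90GFP and 20.6 FPKM in the labelled recombinant, against 7.40 FPKM in WT. It had the lowest q of any member in this comparison, 0.0969 in the authors' deposited table, for a ratio of 2.79 (95% interval 0.894 to 8.70). In mammals the counterpart of mRpL45 lies at the tunnel exit and faces the inner membrane. mRpL45 had 11.1 FPKM in hsromega66, 11.4 FPKM in Hsp90GFP and 28.5 FPKM in the labelled recombinant, against 11.3 FPKM in WT. mRpS26 had 19.0 FPKM in hsromega66, 15.4 FPKM in Hsp90GFP and 40.4 FPKM in the labelled recombinant, against 15.3 FPKM in WT. For both genes the 3 genotypes other than the labelled recombinant lay close together, and neither was called, with q of 0.173 for mRpL45 and 0.142 for mRpS26 in the authors' deposited table.

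The genes at an unadjusted p under 0.05 against WT were mRpL37, mRpL45, mRpL49, mRpS26 and mRpS30. mRpS30 and mRpS18A are named as small subunit genes, although their mammalian counterparts lie in the large subunit. mRpS30 had 12.6 FPKM in hsromega66, 12.9 FPKM in Hsp90GFP and 31.7 FPKM in the labelled recombinant, against 13.6 FPKM in WT. mRpL49 had 12.3 FPKM in hsromega66, 13.5 FPKM in Hsp90GFP and 28.7 FPKM in the labelled recombinant, against 11.5 FPKM in WT.

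**Figure D3:**
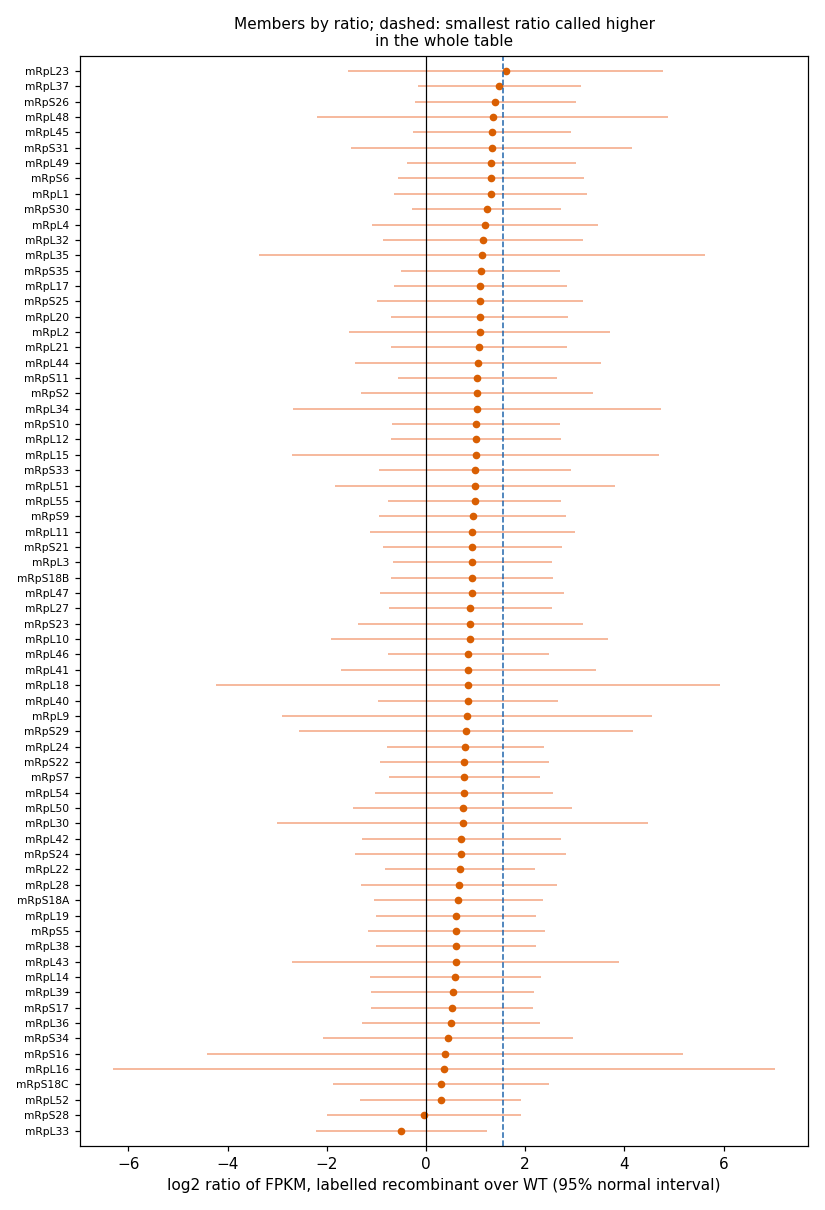
Log2 ratio of FPKM, labelled recombinant over WT, with its 95% normal interval from the deposited test statistic, for each of the 70 genes; the dashed line marks the smallest ratio called higher among all genes, 2.93. The interval crosses 0, a ratio of 1, for all 70 genes, and the point of mRpL23 alone lies past the dashed line.

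At the other end, mRpL33 had 36.3 FPKM in the labelled recombinant against 51.2 FPKM in WT, a ratio of 0.710 (95% interval 0.216 to 2.33). mRpS28 had 13.6 FPKM in the labelled recombinant against 13.9 FPKM in WT. These were the 2 genes below WT, and their WT level was above that of both hsromega66 and Hsp90GFP as well. mRpL52 and mRpS18C came next, with ratios of 1.22 and 1.23 to WT. Across the 70 genes the Spearman correlation of the ratio in the labelled recombinant with the WT level was -0.50, where the WT level is also the denominator of the ratio.

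By position in the ribosome, known from bacterial and mammalian structures, all groups examined had a median ratio to WT above 1.7 in the labelled recombinant. These groups hold only part of the members, and the median over all 70 was 1.88, so they do not set any position apart. The 7 exit tunnel proteins examined were mRpL4, mRpL17, mRpL22, mRpL23, mRpL24, mRpL32 and mRpL45. They had a median ratio of 2.21, from 1.62 for mRpL22 to 3.04 for mRpL23, and all 7 reached 1.5. The 4 stalk proteins examined, which move tRNAs and recruit translation factors, had a median of 1.96, and all 4 reached 1.5. Among them mRpL1 had 6.97 FPKM in hsromega66, 8.22 FPKM in Hsp90GFP and 20.2 FPKM in the labelled recombinant, against 8.16 FPKM in WT. mRpL12 had 15.0 FPKM in hsromega66, 13.6 FPKM in Hsp90GFP and 36.3 FPKM in the labelled recombinant, against 18.1 FPKM in WT. In flies mRpL12 is known to be needed for growth driven by Cyclin D and Cdk4.

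The proteins examined around the peptidyl transferase centre, where peptide bonds form, were mRpL2, mRpL3, mRpL16 and mRpL27. They had a median ratio of 1.88, and 3 of the 4 reached 1.5; the fourth was mRpL16, at 1.29. The interval of mRpL16 was the widest of these, 0.0126 to 132, so its ratio could not be placed. The 4 central protuberance proteins examined (mRpL38, mRpL40, mRpL46 and mRpL48) had a median of 1.80. The 4 proteins examined along the path of tRNA and mRNA (mRpS5, mRpS7, mRpS9 and mRpS11) had one of 1.81. All 8 reached 1.5. For mRpS6 and the 3 paralogues of S18 the median was 1.73, and mRpS18C, at 1.23, fell short of 1.5.

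The 2 subunits had similar ratios. The large subunit genes had a median ratio of 1.86, with 40 of 45 at 1.5 or more, and the small subunit genes one of 1.89, with 20 of 25. Genes numbered as bacterial ribosomal proteins (up to L36 and S21) had a median of 1.90 over 40 genes, and those with higher numbers, many of them particular to mitochondria, one of 1.83 over 30 genes. By chromosome arm the medians were 1.86 on 2L (11 genes), 1.64 on 2R (11), 2.102 on 3L (17), 1.92 on 3R (21) and 1.64 on X (10). The members thus lay on every large arm; 1 of them, mRpL10, lay within 500 kb of l(2)gl, at 182 kb, and none lay within 500 kb of Hsromega. mRpL10 had 14.3 FPKM in hsromega66, 11.9 FPKM in Hsp90GFP and 26.6 FPKM in the labelled recombinant, against 14.49 FPKM in WT.

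The annotated exons of a member covered 327 bases for mRpL34 to 2078 bases for mRpS30. An annotated gene on the opposite strand overlapped 40 of the members, and none was overlapped on its own strand. The sources used here do not state whether counting used the strand. The median ratio of the labelled recombinant to WT was 1.87 for these 40 genes and 1.88 for the other 30. For 36 members the deposited entry spanned a stretch over 1.5 times the gene's own length; their median standard error of the log2 ratio was 1.23, against 0.85 for the other 34, and their median ratio was 1.87, against 1.88 for the other 34.

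Against the single genotypes the labelled recombinant was higher for all 70 members, beside 48.7% of all tested genes over hsromega66 and 47.2% over Hsp90GFP. Over hsromega66 the median ratio was 1.96, with a range from 1.10 to 2.90, and 60 members reached 1.5, beside 25.6% of all tested genes and 21.9% of those in the members' range of WT level. No member was lower by that ratio, beside 29.7% of all tested genes. With equal totals 50 reached 1.5 higher, beside 20.3% of all tested genes. The lowest q was 0.129 in the authors' deposited table, for mRpS11, a protein of the tRNA path, with 45.1 FPKM in the labelled recombinant against 16.7 FPKM in hsromega66. The highest ratio was 2.90, for mRpL1.

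Over Hsp90GFP the median ratio was 2.23, with a range from 1.24 to 3.38, and 65 members reached 1.5, beside 25.5% of all tested genes and 23.4% of those in the members' range of WT level. Again no member was lower by that ratio, beside 29.7%. With equal totals 43 reached 1.5 higher, beside 15.8% of all tested genes. mRpL37, at 20.6 FPKM in the labelled recombinant against 6.096 FPKM in Hsp90GFP, had the highest ratio, 3.38 (95% interval 1.03 to 11.1). It was the member whose interval did not hold 1, but its q was 0.0819 in the authors' deposited table. mRpL21 had 23.3 FPKM in the labelled recombinant against 7.28 FPKM in Hsp90GFP, and mRpL14 had 24.3 FPKM against 7.85 FPKM. All comparisons with the labelled recombinant share its 2 libraries and are not independent of each other.

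Hsp90GFP against hsromega66 showed a median ratio of 0.902, with 20 members above hsromega66 and 50 below, beside 48.3% of all tested genes above. With equal totals the direction turned, with 43 members above and a median ratio of 1.05. A ratio of 1.5 higher was reached by 1 member, mRpS6, at 12.9 FPKM in Hsp90GFP against 8.23 FPKM in hsromega66, beside 11.7% of all tested genes and 5.96% of those in the members' range of WT level. A ratio of 1.5 lower was reached by 4 members, beside 12.2% of all tested genes. The lowest q was 0.714 in the authors' deposited table, for mRpL36.

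Whether the labelled recombinant departed from the sum of the single differences was tested as its log2 ratio to Hsp90GFP minus the log2 ratio of hsromega66 to WT. This difference was positive for all 70 members, beside 48.6% of all 11893 genes tested, with a median of 1.17 over the members and -0.03 over all genes. No member was called by the z test with Benjamini-Hochberg adjustment, beside 0.471% of all genes, and 0 of 70 had an unadjusted p under 0.05, beside 5.07%. The median standard error of 1.36 was larger than the median difference. The test takes the hsromega66 label of the labelled recombinant as given, which its Hsromega level goes against. WT alone was Oregon R+, so the difference of backgrounds does not cancel in the test.

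Other genes of mitochondrial translation mostly stood above WT in the labelled recombinant, without calls. Over all tested genes, 46.1% stood above WT there and 8.66% were called in either direction, so 0 calls in lists this short say little. All 8 translation factors tested were above WT, with a median log2(FPKM + 1) difference of 0.76 and 0 called. Their ratios ran from 1.01 for CG5705 to 2.73 for EfTuM, and 5 of the 8 reached 1.5, beside 25.7% of all tested genes. EfTuM, the elongation factor that brings aminoacyl-tRNA to the ribosome, had 22.6 FPKM in hsromega66, 18.5 FPKM in Hsp90GFP and 60.4 FPKM in the labelled recombinant, against 22.1 FPKM in WT. CG6412, the factor highest in WT, had 24.8 FPKM in hsromega66, 20.9 FPKM in Hsp90GFP and 30.7 FPKM in the labelled recombinant, against 24.2 FPKM in WT. Of 16 mitochondrial aminoacyl-tRNA synthetases, which charge the tRNAs, 14 were above WT, with a median of 0.48 and 0 called. Of 11 genes for upkeep and transcription of mitochondrial DNA, all 11 were above, with a median of 0.51 and 0 called; mtSSB, the single-stranded DNA-binding protein, had 50.8 FPKM in the labelled recombinant against 31.6 FPKM in WT.

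The nuclear genes of the respiratory chain, some of whose partners are products of the mitochondrial ribosome, were farther above WT. Of 27 complex I genes, 26 were above WT in the labelled recombinant, with a median of 1.27 on the log2(FPKM + 1) scale. The 2 called higher, ND75 and ND42, were a share below the 8.66% of all tested genes called in either direction. At an unadjusted p under 0.05 in the authors' test, 15 of the 27 were higher, beside 18% of all tested genes in either direction. ND75, a core subunit, had 14.6 FPKM in hsromega66, 22.1 FPKM in Hsp90GFP and 74.3 FPKM in the labelled recombinant, against 22.1 FPKM in WT (ratio 3.36, q = 0.0356 in the authors' deposited table). Of 21 genes of complexes II to IV with cytochrome c, all 21 were above, with a median of 1.43. Of these, 6 were called higher, and 17 were higher at an unadjusted p under 0.05. Cyt-c-p, the main cytochrome c gene, had 90.8 FPKM in hsromega66, 78.7 FPKM in Hsp90GFP and 752 FPKM in the labelled recombinant, against 98.1 FPKM in WT, a ratio of 7.66 (q = 0.00144 in the authors' deposited table). SdhA, the flavoprotein of succinate dehydrogenase, had a ratio of 3.87. All 11 ATP synthase genes were above WT, with a median of 1.41 and 0 called, and 10 of them had an unadjusted p under 0.05. No entry was matched for the mitochondrially encoded genes, so they were not analysed here.

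**Figure D4:**
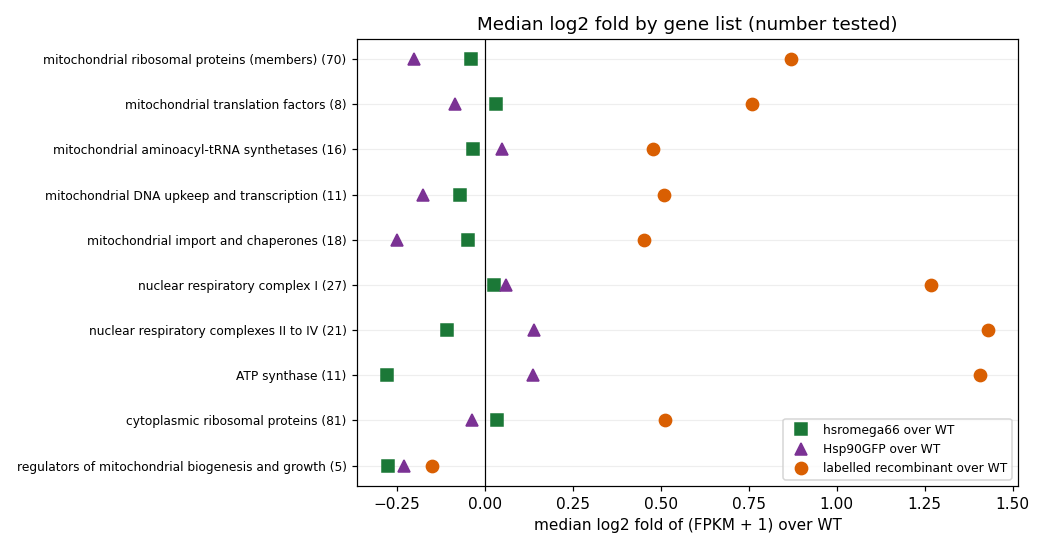
Median log2(FPKM + 1) difference from WT of the mitochondrial ribosomal protein genes and of 9 other gene lists, with the number of tested genes in brackets, for hsromega66, Hsp90GFP and the labelled recombinant. In the labelled recombinant the members lie at 0.87, cytoplasmic ribosomal proteins at 0.51 and the respiratory complexes at 1.27 and 1.43.

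Of 18 genes for mitochondrial import and chaperones, 15 were above WT in the labelled recombinant, beside 46.1% of all tested genes. Their median was 0.45. The one called gene was lower: Tim17b2, an import channel subunit, had 8.35 FPKM in hsromega66, 8.24 FPKM in Hsp90GFP and 0.768 FPKM in the labelled recombinant, against 8.95 FPKM in WT (q = 0.0362 in the authors' deposited table). Of 81 cytoplasmic ribosomal protein genes tested, 76 were above WT, with a median of 0.51 and 0 called. The share called over all tested genes was 8.66%, in either direction. Of 5 regulators of mitochondrial biogenesis and growth, 2 were above WT, with a median of -0.15 and 0 called. Among them srl, the fly homologue of PGC-1, had 10.9 FPKM in the labelled recombinant against 10.3 FPKM in WT, and CycD had 11.2 FPKM against 15.3 FPKM.

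In hsromega66 and in Hsp90GFP the medians of these lists lay between -0.28 and 0.14 relative to WT, with 0 genes called in either direction. Few genes of any kind were called there, 1.24% of all tested genes in hsromega66 and 1.09% in Hsp90GFP.

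Marker genes of several tissues differed along with the members in the labelled recombinant, and their part in the result was not tested. Over all tested genes 8.66% were called there against WT, in either direction. The summed level of 4 fat body markers was 26431 FPKM in hsromega66, 28665 FPKM in Hsp90GFP and 16727 FPKM in the labelled recombinant, against 32490 FPKM in WT, and 2 of them, Lsp2 and Fbp1, were called lower in the labelled recombinant. Lsp1alpha was below WT without a call, and Lsp1beta went the other way, with 11259 FPKM in the labelled recombinant against 7222 FPKM in hsromega66 and 8845 FPKM in WT, also without a call. The 4 salivary gland markers summed to 45384 FPKM in hsromega66, 25058 FPKM in Hsp90GFP and 23.4 FPKM in the labelled recombinant, against 39359 FPKM in WT, with 2 called lower. For both tissues the labelled recombinant had the lowest summed level, although not the lowest level of Lsp1beta. The 3 muscle markers summed to 1470 FPKM in hsromega66, 3082 FPKM in Hsp90GFP and 6454 FPKM in the labelled recombinant, against 2731 FPKM in WT, with all 3 above WT and 0 called. The 4 midgut markers summed to 3556 FPKM in hsromega66, 2143 FPKM in Hsp90GFP and 3575 FPKM in the labelled recombinant, against 1711 FPKM in WT. In the labelled recombinant 2 were called higher and 1 lower. They also differed in the single genotypes, with 3 called higher in hsromega66 and with 1 called higher and 1 lower in Hsp90GFP. The 3 testis markers summed to 118 FPKM in hsromega66, 101 FPKM in Hsp90GFP and 4.11 FPKM in the labelled recombinant, against 136 FPKM in WT, and all 3 were called lower. The 3 neuron markers summed to 34.7 FPKM in hsromega66, 40.6 FPKM in Hsp90GFP and 32.8 FPKM in the labelled recombinant, against 31.6 FPKM in WT, with 2 above WT and 0 called. The 5 markers of dividing cells summed to 73.7 FPKM in hsromega66, 73.6 FPKM in Hsp90GFP and 62.4 FPKM in the labelled recombinant, against 86.6 FPKM in WT, with 4 below WT and 1, CycB, called lower. None of these markers was at 0 in any genotype.

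A few further genes of the mitochondrial ribosome stood outside the 70. The genes tko and bonsai, for the proteins S12 and S15, carry other symbols. tko had 16.9 FPKM in hsromega66, 20.97 FPKM in Hsp90GFP and 32.1 FPKM in the labelled recombinant, against 21.3 FPKM in WT. bonsai had 16.5 FPKM in hsromega66, 10.7 FPKM in Hsp90GFP and 30.9 FPKM in the labelled recombinant, against 14.1 FPKM in WT. Neither was called. mRpL13, mRpL53 and mRpS14 were measured only in entries merged with a neighbouring gene, whose ratios of the labelled recombinant to WT were 1.59, 1.20 and 1.94, also with 0 called.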

How the data were processed

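Libraries of total RNA were made with a stranded kit that removes human, mouse and rat ribosomal RNA and sequenced as 50 bp paired reads, per the labels' protocols. The submitters' processing notes name the build dm6 and the tools Bowtie, TopHat, Cufflinks and Cuffdiff 2.1.1. Each of the 6 deposited tables compares 2 genotypes over 15904 entries. The authors deposited 1 FPKM per genotype, made from 2 libraries, so the depth per library is unknown and no interval of counting error can be given. The deposited test statistic is a score. The deposited p-value and q-value are the authors'.

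A member was called at a deposited q-value under 0.05 with test status OK. Ratios are of FPKM, and log2 differences are of FPKM + 1, which understates differences of genes at low levels. The standard error of a log2 ratio was its size divided by the size of the deposited statistic, and intervals are 95% normal intervals. Such intervals were wider than the deposited p-values imply for every member at a deposited p-value under 0.05. In the labelled recombinant there were 5 such members against WT, 7 against hsromega66 and 12 against Hsp90GFP. The interval held 1 for all 70 members against WT and against hsromega66, and for 69 against Hsp90GFP. The non-additivity test used the same standard errors. Non-additivity was tested with a z test and Benjamini-Hochberg adjustment over all genes, tested on simulated data. Groups came from the labels. Coordinates and overlaps came from the Ensembl 115 annotation, whose coordinates are those of dm6.

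Of 147 listed genes of mitochondria and growth, 119 had an entry. Of 174 listed genes in all, 93 matched by symbol and 52 by an older symbol at the same locus, 4 stood in merged entries and 25 were not matched. Named members were those called, the 4 highest and 4 lowest against WT in each mutant genotype, the 5 highest and 5 lowest in WT, and those within 500 kb of Hsromega or l(2)gl. The highest and lowest against WT were ranked by log2(FPKM + 1) difference. Members shown for their role, for an unadjusted p under 0.05 or for an extreme ratio were chosen after their values were seen. The members, gene lists and tests were chosen with earlier results of these data known. Python 3.11.15 with pandas 2.3.3 and scipy 1.17.1 was used. No sequences were read.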

Additional observations from a re-analysis of the deposited data

How the results depend on the processing

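With 1 value per genotype, no library could be left out. No paired analysis was possible because the tables carry no values per library. All 24 alternative counts of called members were 0, as reported. Those with a deposited q under 0.01 or at least 1 FPKM in either genotype could only be 0, since they select from the reported calls. With the deposited p-values adjusted within each table (Benjamini-Hochberg) the lowest adjusted p was 0.0883, in the labelled recombinant against WT. Of 42 alternative medians, 31 lay within 0.1 of the reported log2 median. Those limited to members of at least 1 FPKM in every genotype, or with test status OK, kept all 70 members and could not differ. With a pseudocount of 5 FPKM the median was 0.72 in the labelled recombinant against WT, 0.76 against hsromega66 and 0.88 against Hsp90GFP. Centred on cytoplasmic ribosomal protein genes these medians were 0.36, 0.43 and 0.55. With FPKM scaled to equal totals, added after seeing the data, they were 0.53, 0.72 and 0.70, and the median was -0.18 in hsromega66 against WT and 0.071 in Hsp90GFP against hsromega66, where the sign turned. That scaling put the median of all tested genes at -0.36 in the labelled recombinant against WT, and 66 members stayed above WT. The median implied error, near 1 on the log2 scale, limits what could be called.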
